A study of Mus musculus with 3 samples.

Results

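The genes described here are the 10 core components of the circadian clock named *Clock*, *Arntl*, *Npas2*, *Per1*, *Per2*, *Per3*, *Cry1*, *Cry2*, *Dbp* and *Tef*. They were chosen by name, with no threshold on their values, and each of the 10 symbols had a row among the 24346 genes of the deposited table. The study compared endothelial cells (ECs) of kidney, lung, liver and heart, and the adult lung ECs are described here in 3 libraries of 1 condition, called S38, S44 and S52 after their labels. The cells came from wild type C57BL/6J mice and were freshly isolated from lung. By the methods of the study the mice were 6 to 8 weeks old and male, received an antibody against VE-cadherin by injection under anesthesia, and gave CD31+CD45-Podoplanin- cells by sorting after enzymatic digestion at 37 °C. Nothing in the labels says whether each library came from 1 mouse or from a pool, so the spread between libraries may be technical in part. The hour at which the mice were killed and their lighting schedule are not given in the sources used here. With 1 condition there is no comparison between groups, and an exact two-sided sign-flip test over 3 libraries cannot give a p-value under 0.25.

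The mammalian clock is a feedback loop of transcription that runs in nearly every cell, ECs included. CLOCK, or its relative NPAS2, pairs with BMAL1, the product of *Arntl*, and the pair activates genes through E-box elements in DNA. Among these genes are the *Per* and *Cry* genes, whose proteins enter the nucleus and block the pair that activated them, so that the transcripts rise and fall once a day. A second loop runs through REV-ERB repressors (*Nr1d1*, *Nr1d2*) and ROR activators, which act on *Arntl* through ROR elements, and another through the proline and acidic amino acid-rich factors DBP and TEF, which act on D-box elements. In mouse tissues *Arntl*, *Npas2*, *Clock* and *Cry1* transcripts peak around the end of the night, and *Nr1d1*, *Dbp*, *Tef* and the *Per* transcripts peak from midday to dusk.

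Values are FPKM, in which the fragments counted for a gene are divided by its length and by the total of its library, and were used as deposited. Markers of the labelled cell type were high, and the 8 endothelial genes fixed for this check summed to between 4447 and 5290 FPKM in the 3 libraries. Depth was estimated from the steps in low values of 7077 genes with a single transcript, and came to 37700000, 38600000 and 34100000 fragments (S38, S44, S52). Library S52 stood apart in genes of other cell types. Its sum over 4 platelet markers was 37.96 FPKM, against 1692 FPKM in S38 and 1345 FPKM in S44, and its sums over alveolar type 2, airway, leukocyte and erythroid markers were the lowest as well. In S38 and S44 the alveolar type 2 gene *Sftpc* was at 3333 and 2862 FPKM. The airway gene *Scgb1a1* was at 2669 and 2212.5 FPKM there. Both were above each of the 8 endothelial genes in these libraries, of which *Cldn5* was the highest at 1486 and 1732 FPKM.

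Of the 10 clock genes, 8 had a mean of at least 1 FPKM, the level used here for detection, which 48.3% of all genes reached. *Per1* was the highest at 33.8 ± 12.0 FPKM (SD, n = 3 libraries), above 89.5% of genes. *Arntl*, *Tef* and *Clock* followed within a narrow band, at 12.1 ± 1.34, 11.4 ± 1.90 and 11.3 ± 0.975 FPKM (SD, n = 3 for each). Below them *Cry1* was at 4.89 ± 1.05, *Cry2* at 3.40 ± 0.878, *Dbp* at 2.41 ± 0.577 and *Per2* at 1.82 ± 0.194 FPKM (SD, n = 3 for each). *Per3*, at 0.978 ± 0.188 FPKM, and *Npas2*, at 0.318 ± 0.252 FPKM (SD, n = 3 for each), lay under 1 FPKM. Since FPKM is scaled to gene length, levels of different genes can be set side by side within a library.

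**Figure D1:**
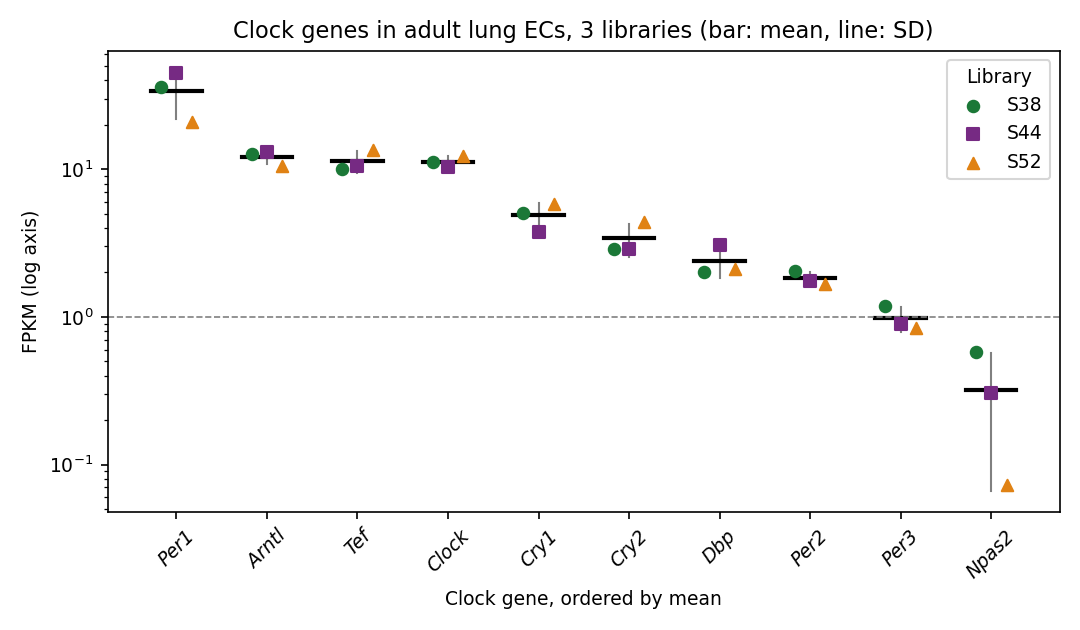
FPKM (log axis) of the 10 clock genes in the 3 adult lung EC libraries, with the mean as a bar, 1 SD on each side as a line, and a dashed line at 1 FPKM. *Per1* is the highest gene in every library, *Arntl*, *Tef* and *Clock* overlap, and *Npas2* is the lowest gene in every library.

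In the order of levels, neighbours were separated in some places and not in others. *Per1* was above *Arntl* in 3 of 3 libraries, by 1.98-fold to 3.43-fold, and their ranges did not overlap. *Arntl*, *Tef* and *Clock* changed places between libraries and did not differ beyond their spread. *Clock* was above *Cry1* by 2.11-fold to 2.75-fold, again without overlap. *Cry1* was above *Cry2* within each library, although their ranges over the libraries overlapped. The order of *Cry2*, *Dbp* and *Per2* turned in 1 of 3 libraries at each step, so these neighbours did not differ beyond their spread. *Per2* was above *Per3* by 1.71-fold to 1.98-fold, and *Per3* above *Npas2* by 2.07-fold to 11.5-fold, without overlap in either case.

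The activators of the loop were present at similar levels, apart from *Npas2*. *Arntl* lies on chromosome 7 (GRCm38, 113207465 to 113314126, plus strand) with 21 exons in its longest transcript of the basic GENCODE M21 set. It was at 12.7 (S38), 13.0 (S44) and 10.6 FPKM (S52). *Clock*, on chromosome 5 (76209868 to 76304792, minus strand), was at 11.1 (S38), 10.4 (S44) and 12.3 FPKM (S52). The ratio of *Arntl* to *Clock* within a library was 1.14 (S38), 1.26 (S44) and 0.860 (S52), so that *Arntl* was the higher gene in S38 and S44 and *Clock* the higher gene in S52. As deposited both genes varied little, with a coefficient of variation (CV) over the libraries of 11.1% for *Arntl* and 8.65% for *Clock*. The median was 17.6% over all genes at 1 FPKM or above. This depends on the scaling. The highest over the lowest library was 1.23-fold for *Arntl* and 1.19-fold for *Clock* as deposited. It was 1.48-fold and 1.49-fold once each library was rescaled to the same sum.

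*Npas2*, which encodes the factor that can take the place of CLOCK, was far lower (chromosome 1, 39194212 to 39363236, plus strand). It was at 0.576 (S38), 0.305 (S44) and 0.0730 FPKM (S52), and S52 was thus the lowest library by a wide margin. The estimated number of fragments behind these values was 89, 48 and 10, and the exact Poisson 95% intervals, which cover counting error only, were 0.464 to 0.711, 0.224 to 0.404 and 0.0346 to 0.133 FPKM. The intervals did not overlap, so the difference between libraries was larger than counting error. *Clock* exceeded *Npas2* by 19.3-fold in S38, 34.0-fold in S44 and 169-fold in S52. The highest over the lowest value of *Npas2* was 7.88-fold, and without S52 it was 0.92 on the log2 scale, against 2.98 with all libraries. In the same order of libraries the sum over alveolar type 2 markers was 3839, 3218 and 766 FPKM, and over leukocyte markers 1091, 835 and 186 FPKM. In bulk RNA fewer cells of a type and less RNA per cell cannot be told apart, and the part of other cells in the *Npas2* values was not tested. The relative of *Arntl*, *Arntl2*, was also low, at 0.300 ± 0.158 FPKM (SD, n = 3), and *Arntl* exceeded it by 27.1-fold to 57.9-fold.

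RefSeq promoter windows, from 250 bases before to 50 bases after an annotated start (GRCm38.p6), were at hand for 9 of the 10 genes, all but *Per2*. There were 14 windows in all. They were searched on both strands for the E-box CACGTG, the D-box TTATGNAA, the ROR element TAGGTCA and the cyclic AMP response element TGACGTCA. Of the 14 windows 4 held the E-box, 2 the D-box, 1 the ROR element and 0 the cyclic AMP response element, and the E-box windows belonged to 3 members. Among all 32851 promoter windows 7.15% held the E-box, 3.38% the D-box, 2.61% the ROR element and 1.79% the cyclic AMP response element. A match describes the letters only and shows no binding. No *Clock*, *Npas2*, *Cry2* or *Dbp* window held any of these motifs. The second *Arntl* start had a ROR element just downstream of it, shown here in capitals with 11 bases on each side (chr7:113207530-113207558, plus strand), because this is the type of element through which REV-ERB and ROR proteins act on the gene.
*Arntl*: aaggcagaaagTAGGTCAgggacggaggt

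The *Per* genes encode the repressors that pair with cryptochromes, and they differed widely in level. *Per1* (chromosome 11, 69095217 to 69109960, plus strand) was at 35.9 (S38), 44.7 (S44) and 21.0 FPKM (S52). *Per2* (chromosome 1, 91415982 to 91459324, minus strand) was at 2.04 (S38), 1.76 (S44) and 1.67 FPKM (S52). *Per3* (chromosome 4, 151003652 to 151044665, minus strand) was at 1.19 (S38), 0.901 (S44) and 0.840 FPKM (S52). *Per1* therefore stood apart from its paralogues in every library, by 12.6-fold to 25.3-fold over *Per2* and by 25.0-fold to 49.6-fold over *Per3*. The ratio of *Per2* to *Per3* was steady, at 1.71, 1.96 and 1.98 in S38, S44 and S52. No window of 51 bases, the read length, was shared between transcripts of the 10 clock genes, so no exactly matching read could be assigned to more than 1 of them.

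Library S52 had the lowest value of all 3 *Per* genes as deposited, and of *Per1* also under both other scalings tried, whereas *Per2* and *Per3* were lowest in S44 once each library was rescaled to the same sum. *Per1* had the largest spread of the detected members, with 2.13-fold between S44 and S52, and it was the only one of the 8 over 2-fold, a limit that 20.1% of all detected genes passed. Without S44 this spread was 1.71-fold and without S52 it was 1.25-fold. Its observed CV was 35.4%, against a counting error of 1.64%. For *Per2* the CV was 10.6% against 5.16%, and its Poisson intervals in S38 (1.85 to 2.24 FPKM) and S52 (1.49 to 1.86 FPKM) overlapped by a narrow margin. For *Per3* the interval in S38, 1.05 to 1.35 FPKM, lay above that in S52, 0.718 to 0.978 FPKM.

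The sequence upstream of the first *Per1* start differs in these elements from that of *Per3*. The window of the second *Per1* start held none of the motifs, and *Per2* had no window to compare. The *Per1* stretch shown holds an E-box and a D-box (chr11:69098699-69098947, plus strand). The *Per3* stretch holds a pair of D-boxes and no E-box (chr4:151044666-151044915, minus strand). Both are the bases before the annotated start that lie in no exon, with the motifs in capitals.
*Per1*: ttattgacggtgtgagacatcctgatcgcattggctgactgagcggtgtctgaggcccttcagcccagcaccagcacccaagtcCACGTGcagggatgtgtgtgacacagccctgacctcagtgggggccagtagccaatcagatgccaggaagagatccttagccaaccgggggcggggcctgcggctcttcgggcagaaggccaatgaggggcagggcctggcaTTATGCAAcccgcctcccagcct
*Per3*: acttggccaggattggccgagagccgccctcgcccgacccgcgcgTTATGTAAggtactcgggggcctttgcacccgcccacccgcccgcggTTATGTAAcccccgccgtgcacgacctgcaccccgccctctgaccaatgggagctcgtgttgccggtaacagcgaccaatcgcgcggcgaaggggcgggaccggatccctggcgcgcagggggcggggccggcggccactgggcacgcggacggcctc

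*Per1* is also a gene that responds within an hour to cyclic AMP, to glucocorticoids and to serum, so lists of such genes are given beside it. All 10 immediate-early genes were at 156 FPKM or above on average, and their sum was 3935 (S38), 4774 (S44) and 5494 FPKM (S52). *Ier3*, the highest gene of the list, was at 884, 1124 and 1873 FPKM (S38, S44, S52). *Jun* at 380, 415 and 336 FPKM and *Ier2* at 263, 389 and 255 FPKM had the order of libraries that *Per1* had. All 13 genes of the glucocorticoid list, *Per1* among them, were detected, where 48.3% of all genes were. Their sums were 1662, 1725 and 1858 FPKM. *Tsc22d3*, a glucocorticoid target also known as Gilz, was at 125, 104 and 88.2 FPKM (S38, S44, S52). *Sgk1*, a kinase induced by glucocorticoids and by other stimuli, was at 213, 182 and 385 FPKM, with S52 the highest. *Fkbp5*, a chaperone partner of the glucocorticoid receptor, was low at 1.97 ± 0.213 FPKM (SD, n = 3). The receptor gene *Nr3c1* was at 33.5 ± 3.89 FPKM (SD, n = 3). As deposited it was highest in S44 and lowest in S52, the order of libraries that *Per1* had. As deposited both sums were lowest in S38 and highest in S52, while *Per1* was highest in S44 and lowest in S52. The medians had another order, with S44 the highest library in both lists. Over the immediate-early genes the median was 325, 387 and 378 FPKM (S38, S44, S52). Over the glucocorticoid genes, *Per1* included, it was 53.6, 63.1 and 52.5 FPKM. S44 was the highest library for 5 of the 10 immediate-early genes and 6 of the 13 glucocorticoid genes, *Per1* included. The share of all detected genes highest in S44 was not computed, so these counts are a description only. S52 was the lowest for 2 of the 10 and 6 of the 13, against 46.3% of all detected genes. It was the highest for 4 of the 10 and 2 of the 13, against 33.9%. The part of tissue handling in the *Per1* values was not tested.

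The 5 genes whose pattern over the libraries was most like that of *Per1* were *3110062M04Rik*, *Glrx5*, *Nelfcd*, *Zc3h12a* and *1700037H04Rik*, out of 6172 genes whose mean reached 10 FPKM. Their root mean square distance from *Per1*, on log2 FPKM centred over 3 libraries, was between 0.0041 and 0.014. With 3 libraries many genes have a like pattern, and the likeness is a description.

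The cryptochromes, the strongest repressors of the loop, were close to each other. *Cry1* (chromosome 10, 85131700 to 85185064, minus strand) was at 5.05 (S38), 3.78 (S44) and 5.85 FPKM (S52). *Cry2* (chromosome 2, 92403646 to 92434043, minus strand) was at 2.89 (S38), 2.91 (S44) and 4.42 FPKM (S52). *Cry1* was the higher gene in 3 of 3 libraries, by 1.75-fold, 1.30-fold and 1.32-fold. *Cry2* was highest in S52 under each scaling, by 1.53-fold over its lowest library as deposited, with Poisson intervals of 3.93 to 4.95 FPKM in S52 and 2.55 to 3.32 FPKM in S44. Without S52 the values of *Cry2* were nearly equal, 0.0086 apart on the log2 scale. *Cry1* was also highest in S52 as deposited, but S38 was the highest after rescaling to the same sum. Compared with *Per1*, which was lowest in S52, the cryptochromes thus had the opposite order between S44 and S52. Of the 51-base windows of *Cry2*, 2.35% also occur in other genes, chiefly the antisense gene *D930015M05Rik*, which was listed at 0 in S38 and S44 and at 1.03 FPKM in S52. The libraries carry no strand information, so reads of this stretch cannot be assigned to either strand. The E-box upstream of *Cry1* is shown in its context (chr10:85185065-85185304, minus strand), since the window of the first *Per1* start holds the same letters.
*Cry1*: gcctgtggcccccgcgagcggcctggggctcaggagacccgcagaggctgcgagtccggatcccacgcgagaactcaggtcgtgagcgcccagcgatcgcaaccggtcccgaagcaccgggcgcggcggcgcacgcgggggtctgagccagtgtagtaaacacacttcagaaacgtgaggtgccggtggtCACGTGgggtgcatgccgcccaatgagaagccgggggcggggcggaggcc

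Of the factors that act on D-boxes, *Tef* was well above *Dbp*. *Tef* (chromosome 15, 81802421 to 81826863, plus strand) was at 10.0 (S38), 10.6 (S44) and 13.6 FPKM (S52). S52 was the highest library under each scaling, and without it the spread was 0.078 on the log2 scale. *Dbp* (chromosome 7, 45705088 to 45710203, plus strand), a direct and strongly rhythmic target of the activators in most tissues, was at 2.02 (S38), 3.07 (S44) and 2.13 FPKM (S52). S44 was the highest library of *Dbp* under each scaling. With 77 and 119 estimated fragments the Poisson intervals were 1.60 to 2.54 FPKM in S38 and 2.54 to 3.67 FPKM in S44; these intervals were next to each other without overlap. *Tef* exceeded *Dbp* by 4.95-fold, 3.45-fold and 6.38-fold. The remaining gene of the family, *Hlf*, was at 0.561 ± 0.209 FPKM (SD, n = 3), and *Nfil3*, which encodes a repressor of the same elements, was at 15.9, 16.0 and 21.0 FPKM.

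The value of *Dbp* has a limit of its own. Its exons overlap those of *Sphk2*, a sphingosine kinase gene on the other strand, over 539 bp, and 26.1% of its 51-base windows also occur in *Sphk2* transcripts. *Sphk2* was at 7.09, 7.66 and 4.48 FPKM (S38, S44, S52), above *Dbp* in each library. Without strand information, reads in the overlap could have been assigned to either gene, and *Dbp* is therefore uncertain. For *Tef* the overlap with the antisense gene *Gm17597* covers 193 bp and 3.07% of windows. Upstream of the second *Tef* start there is an E-box (chr15:81811164-81811413, plus strand), shown because *Tef*, like *Per1* and *Cry1*, has the element at its start, while the *Dbp* window has none.
*Tef*: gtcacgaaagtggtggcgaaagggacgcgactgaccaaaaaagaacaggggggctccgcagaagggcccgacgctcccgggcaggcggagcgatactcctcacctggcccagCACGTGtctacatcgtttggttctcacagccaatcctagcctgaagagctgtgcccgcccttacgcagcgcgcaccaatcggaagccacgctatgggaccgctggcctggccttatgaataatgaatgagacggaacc

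**Figure D2:**
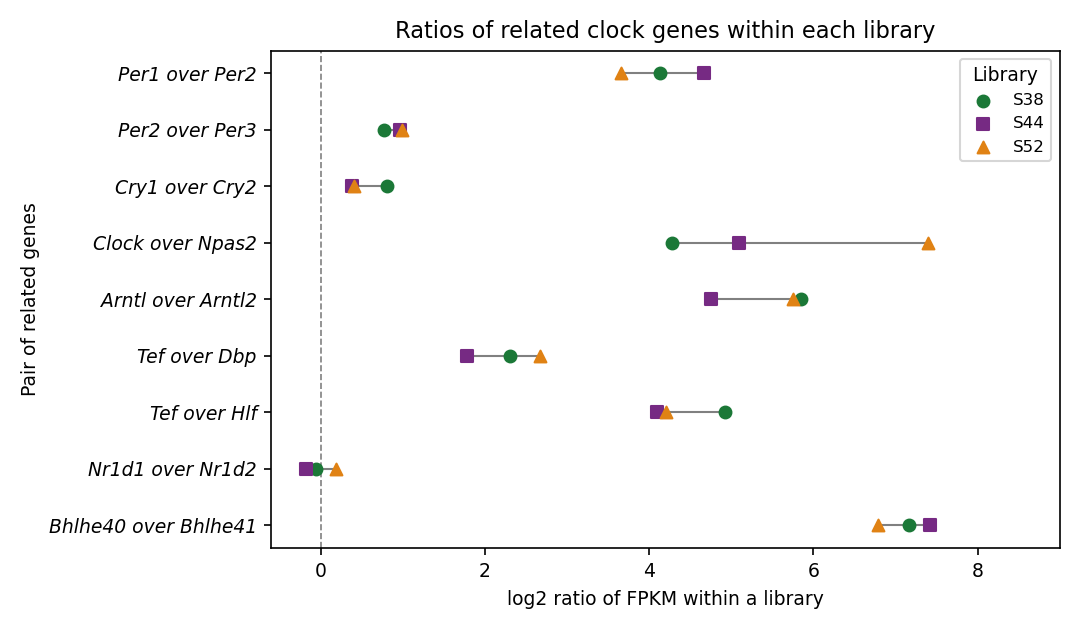
Log2 ratio of FPKM between related clock genes within each of the 3 libraries, with a dashed line where both genes are equal. The first gene of each pair exceeds the second in every library, except that *Nr1d1* and *Nr1d2* lie on both sides of the line.

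Partners and relatives of the members were described by a list of 16, of which 8 were detected, where 48.3% of all genes were. Not all 16 are parts of the loop. *Npas1*, *Npas3* and *Npas4* were listed as relatives of *Npas2*, and each was under 1 FPKM. The REV-ERB genes were abundant, with *Nr1d1* at 24.8, 22.8 and 39.7 FPKM and *Nr1d2* at 25.8, 25.8 and 34.9 FPKM (S38, S44, S52). Both were highest in S52 under each scaling, and their ratio to each other was between 0.885 and 1.14. *Rora*, the activator that competes with them, was at 4.73 ± 0.290 FPKM (SD, n = 3), while *Rorb* was under 1 FPKM. *Ciart*, a repressor of the CLOCK and BMAL1 pair, was at 14.9, 15.4 and 19.5 FPKM and was also highest in S52 under each scaling. *Bhlhe40*, which encodes the repressor DEC1, was the highest of the list at 55.5 ± 11.5 FPKM (SD, n = 3), and exceeded its paralogue *Bhlhe41* by 111-fold to 172-fold. *Timeless* was at 15.5, 11.6 and 22.3 FPKM and its partner *Tipin* at 15.2 ± 1.67 FPKM (SD, n = 3). Of the 8 detected genes, 6 were highest in S52 as deposited, against 33.9% of all detected genes. *Rora*, 1 of these 6, was highest in S38 after rescaling to the same sum. None of the 8 had a spread over 2-fold, a limit that 20.1% of all detected genes passed.

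**Figure D3:**
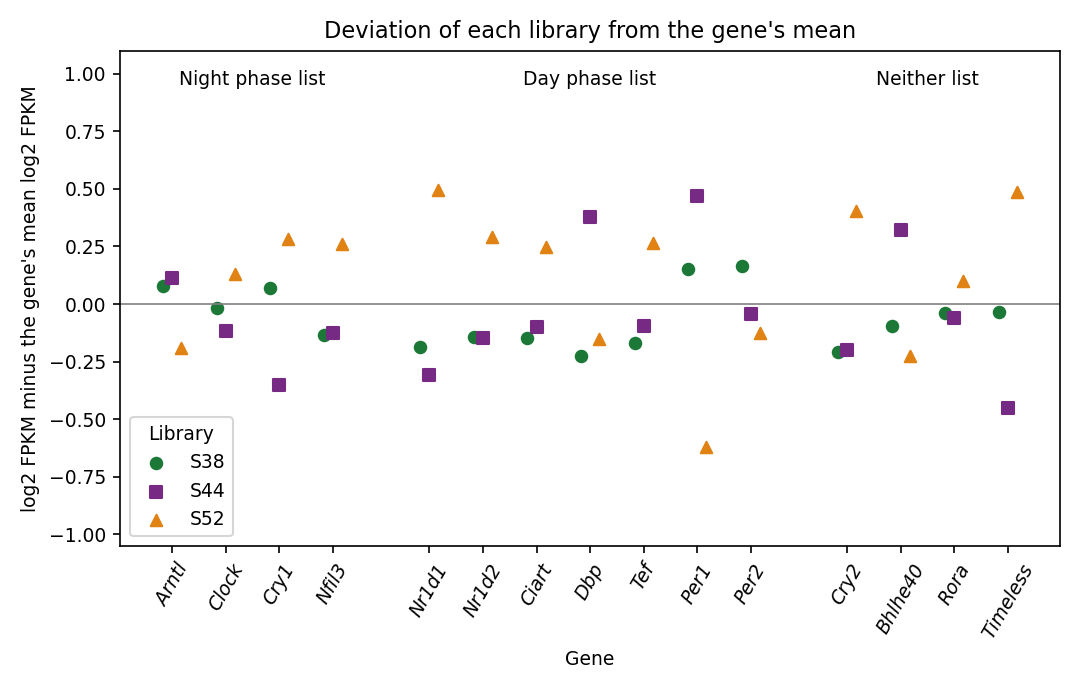
Log2 FPKM of each library minus the gene's mean log2 FPKM, for detected genes of the night phase list, the day phase list and 4 further clock genes. With the values as deposited S52 lies above the other libraries for 10 genes, *Nr1d1*, *Nr1d2*, *Ciart*, *Tef*, *Cry2* and *Nfil3* among them, and below them for *Per1*, *Arntl*, *Per2* and *Bhlhe40*; after rescaling to the same sum it is no longer highest for *Clock*, *Cry1* and *Rora* nor lowest for *Per2*.

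The balance between the arms of the loop was read within each library, where it does not depend on the scaling. *Arntl* exceeded *Dbp* by 6.30-fold in S38, 4.25-fold in S44 and 4.98-fold in S52, and *Per2* by 6.25-fold, 7.40-fold and 6.36-fold. The log2 ratio of *Dbp* to *Arntl* was -2.65, -2.09 and -2.32, a spread of 0.57 between libraries, and without S38 the spread was 0.23. *Nr1d1* was above *Arntl* in every library, by 1.95-fold, 1.75-fold and 3.75-fold, and *Per1* by 2.82-fold, 3.43-fold and 1.98-fold. S52 thus had the highest *Nr1d1* to *Arntl* ratio and the lowest *Per1* to *Arntl* ratio. Over lists of genes that peak from midday to dusk (7 detected) and around the end of the night (4 detected), the day list had the higher median by 0.32, 0.40 and 0.77 on the log2 scale in S38, S44 and S52. This excess differed by 0.45 between libraries, but by 0.096 without S52 and by 0.14 without *Dbp*. The sign of the excess depends on the genes in the lists. With the members alone (4 of the day list, 3 of the night list) the night genes had the higher median in every library, and the day minus night difference was -1.30, -0.86 and -0.98 on the log2 scale, with S38 and not S52 the farthest from the others. The day phase genes did not move as a group, since *Nr1d1*, *Nr1d2*, *Ciart* and *Tef* were highest in S52, *Dbp* in S44 and *Per2* in S38 under each scaling, and *Per1* was highest in S44 as deposited and in S38 after rescaling to the same sum.

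The clock genes were then read against all genes at 1 FPKM or above. Of the 8 detected members 4 were over 1.5-fold between the highest and the lowest library, where 41.7% of all detected genes were. S52 was the highest library for 4 of the 8, against 33.9% of genes, and the lowest for 3 of the 8, against 46.3%. The median log2 ratio of S52 to S38 was 0.11 over the 8 members and -0.087 over all detected genes, and that of S52 to S44 was 0.082 against -0.064. For each of the 10 genes the observed CV was over 2 times the counting error, from 2.06 times for *Per2* to 21.5 times for *Per1*. This ratio was computed for the members only, so it does not set them apart from other genes. The share of members past 1.5-fold was close to that of all genes, while the spread of each member was larger than counting alone gives.

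**Figure D4:**
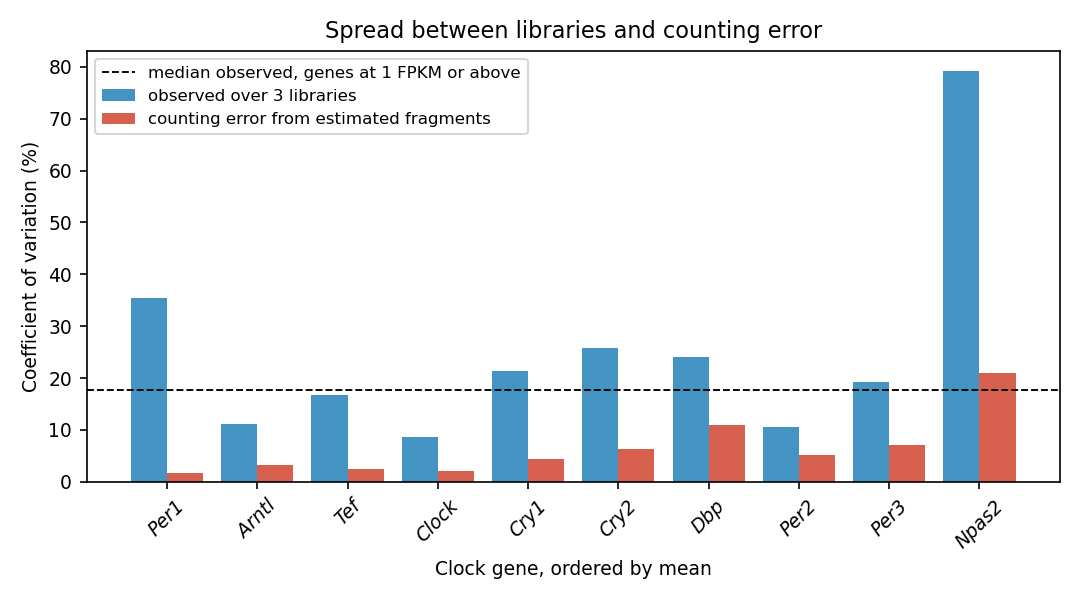
Coefficient of variation over the 3 libraries (blue) and the counting error of the estimated fragments (red) for the 10 clock genes, with the median over all detected genes as a dashed line. With the values as deposited, *Npas2* at 79.1% and *Per1* at 35.4% have the largest spread, and *Clock* at 8.65% the smallest.

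Cell type markers are given beside these values. The sum over the 10 clock genes was 83.5, 91.4 and 72.4 FPKM (S38, S44, S52), with 1.26-fold between the highest and the lowest, and that over the endothelial markers differed by 1.19-fold. *Per1* carried much of the first sum. Without it the other 9 members summed to 47.7, 46.7 and 51.4 FPKM, and the median over the 10 members was 3.97, 3.42 and 5.13 FPKM, so that S52 was the highest library by both measures as deposited and the lowest by the sum with *Per1*. The sums over airway, leukocyte and erythroid markers had folds of 6.91, 5.86 and 8.34, and the platelet sum had 44.6. *Cd3e*, a T cell gene, was listed at 0 in S52, and *Ptprc*, which encodes CD45, was at 0.434 FPKM there. As deposited, *Npas2*, *Per2* and *Per3* had the order of libraries that the alveolar type 2, airway and platelet sums had, with S38 highest and S52 lowest. For *Per2* and *Per3* the Poisson intervals of S44 and S52 overlapped, and both genes were lowest in S44 after rescaling to the same sum. *Clock*, *Cry1*, *Cry2* and *Tef* had their highest deposited value in S52, where those sums were lowest, and for *Clock* and *Cry1* this was no longer so after rescaling to the same sum. Mural cell markers had another order, with a sum of 103, 55.5 and 101 FPKM (S38, S44, S52). Of the 4 mural genes 3 (*Pdgfrb*, *Rgs5* and *Cspg4*) were highest in S52, against 33.9% of all detected genes. All 4 were lowest in S44, for which no share over all detected genes was computed. *Clock* and *Cry1* were also highest in S52 and lowest in S44 as deposited. The Poisson intervals overlapped between S38 and S44 for *Clock* and between S38 and S52 for *Cry1*. The sums over fibroblast markers were 73.1, 56.0 and 41.9 FPKM, and those over alveolar type 1 markers 348, 373 and 273 FPKM. The part of other cells in the values of the clock genes was not tested.

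**Figure D5:**
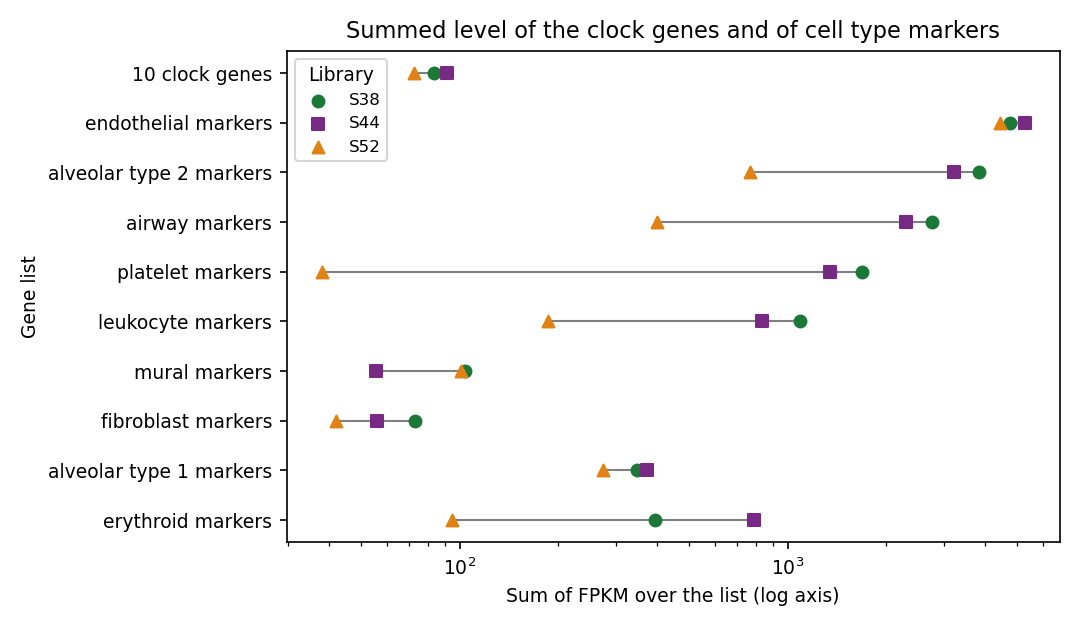
Sum of FPKM (log axis) over the 10 clock genes and over each list of cell type markers in the 3 libraries. The clock genes and the endothelial markers vary by 1.26-fold and 1.19-fold, and the platelet markers by 44.6-fold with S52 lowest.

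The enzymes and partners that modify clock proteins were nearly all present. Of a list of 25 such genes, 23 were detected, where 48.3% of all genes were. None of the 23 had a spread over 2-fold, a limit that 20.1% of all detected genes passed. The casein kinases that phosphorylate PER proteins were high, with *Csnk1d* at 72.4 ± 18.3 FPKM and *Csnk1e* at 53.0 ± 4.22 FPKM (SD, n = 3 for each), above all 10 members. *Fbxl21* was under 1 FPKM, at 0.655, 0.0567 and 0.439 FPKM. *Btrc*, which marks PER proteins for degradation, was at 11.3 ± 0.240 FPKM (SD, n = 3), a CV of 2.12%. *Nono*, a partner of PER proteins, was the highest at 96.5 ± 13.7 FPKM (SD, n = 3). *Usp2*, a deubiquitinase that is itself a rhythmic clock target, was the other gene under 1 FPKM, at 0.380 ± 0.163 FPKM (SD, n = 3).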

How the data were processed

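Poly-A selected RNA of sorted adult lung ECs was sequenced as paired reads of 51 bases without strand information. The deposited table gives FPKM per gene symbol for the mm10 build, and all 3 of its sample columns were used (0 left out). The submitters' processing notes name bcl2fastq 2.17, FastQC 0.11.5, Trimmomatic 0.36, TopHat2 2.1.0 and Cufflinks 2.2.1 without their roles, and the paper describes alignment with STAR and counting with HTSeq for its counts. The annotation behind the FPKM values is not given in the sources used here. FPKM is not a count, so no count model was fitted, and with 1 condition no groups were compared.

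Values were used as deposited, with a detection limit of 1 FPKM on the mean and no pseudocount on the log2 scale. Folds between libraries are the highest over the lowest value, called over 2. Depth was found by searching, for genes with 1 basic GENCODE M21 transcript of 800 to 4000 bp, the number of fragments that puts low values on whole fragments. Between 75.3% and 78.9% of them lay within 0.15 of a whole number, with a step fitted to these values. On simulated data for 7077 genes the largest error of the depth was 1.54%. Fragments of a member use its shortest basic transcript. For a gene of 2000 bp, 3 fragments, the limit that a count of 0 allows, stand for 0.0430 to 0.0481 FPKM. Read-length windows were searched on both strands of all GENCODE M21 transcripts. Promoters are those of RefSeq on GRCm38.p6.

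The members and lists were chosen with earlier results of these data known. The text names all 10 members, genes of the fixed lists and the 5 genes nearest in pattern to the detected member with the largest spread. *Sphk2*, *D930015M05Rik* and *Gm17597* were added as overlapping genes. *Noct* had no row under this symbol and has one as *Ccrn4l*, and Icer, a product of *Crem*, had none. Alternatives were leaving out each library, a rescaling to a sum of 1000000, median-of-ratios scaling, and other thresholds, folds and pseudocounts. Python 3.11.15, numpy 2.4.6, pandas 2.3.3, scipy 1.17.1 and matplotlib 3.10.9 were used.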

Additional observations from a re-analysis of the deposited data

How the results depend on the processing

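The number of detected members stayed between 8 and 9 when each library was left out and was 4 with a threshold of 10 FPKM. The number over 2-fold between libraries, 1 in the main result, was 0 to 1 with a library left out, 4 with a fold of 1.5, 0 with a fold of 3 and 2 with no minimum on the mean. The spread of the log2 ratio of *Dbp* to *Arntl*, 0.57, was 0.23 to 0.57 with a library left out. The difference between libraries in the day list over the night list, 0.45, was 0.096 to 0.47 with a library left out and 0.14 without *Dbp*, which leaves 6 genes in the day list. Rescaling to a sum of 1000000 shifted all genes by -0.21, -0.68 and -0.51 on the log2 scale in S38, S44 and S52, and gave mean levels of 8.26 for *Clock*, 8.88 for *Arntl*, 1.35 for *Per2*, 0.729 for *Per3*, 3.62 for *Cry1*, 2.48 for *Cry2*, 1.72 for *Dbp* and 8.28 for *Tef*. The same rescaling changed the log2 spread to 0.58 for *Clock*, 0.57 for *Arntl*, 0.68 for *Per2* and 0.88 for *Per3*, and changed the highest library of *Clock*, *Arntl*, *Per1* and *Cry1*. Median-of-ratios scaling changed no highest or lowest library. With a pseudocount of 1 the log2 spread of *Npas2* was 0.55 in place of 2.98. With a library left out the log2 spread was 0.10 to 0.25 for *Clock*, 0.034 to 0.30 for *Arntl*, 0.92 to 2.98 for *Npas2*, 0.32 to 1.09 for *Per1*, 0.082 to 0.29 for *Per2*, 0.10 to 0.50 for *Per3*, 0.21 to 0.63 for *Cry1*, 0.0086 to 0.61 for *Cry2*, 0.071 to 0.60 for *Dbp* and 0.078 to 0.44 for *Tef*. The cause of these changes was not tested beyond the removal itself. No paired analysis was possible because the 3 libraries used here form 1 group. Depth limits *Npas2* in S52, with 10 estimated fragments, and *Dbp*, with 71 to 119.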

Other observations

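Output genes of the clock were looked up by a list of 15 genes with a row, of which 12 were detected, where 48.3% of all genes were. Their levels ran from *Cdkn1a*, which encodes the cell cycle inhibitor p21, at 611 ± 94.8 FPKM to *Ppara*, a nuclear receptor gene, at 0.113 FPKM on average and listed at 0 in S52. *Tspan4*, a tetraspanin gene, was at 43.7, 54.2 and 59.7 FPKM (S38, S44, S52). *Nampt*, the enzyme that limits the salvage of NAD, was at 43.4, 44.3 and 56.7 FPKM. *Ccrn4l*, which encodes nocturnin, was at 4.21, 4.96 and 4.29 FPKM. *Pdk4*, a kinase that restrains pyruvate oxidation, was at 3.70, 2.47 and 1.32 FPKM. It was the only detected output gene over 2-fold, where 20.1% of all detected genes were. *Wee1*, a cell cycle kinase gene with E-boxes, was at 3.13, 3.47 and 3.79 FPKM.

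The factors through which cyclic AMP reaches *Per1* were present, with all 6 listed genes that had a row detected, where 48.3% of all genes were. *Creb1* was steady at 10.9 ± 0.332 FPKM (SD, n = 3). *Crtc2*, a coactivator of CREB, was at 32.3, 29.0 and 53.6 FPKM (S38, S44, S52), so that its highest library was the one in which *Per1* was lowest. Its relative *Crtc1*, at 1.44, 1.88 and 1.36 FPKM, had the order of libraries that *Per1* had as deposited. *Crtc3*, at 5.71, 4.62 and 4.72 FPKM, was highest in S38. S52 was the highest library for 2 of the 6, against 33.9% of all detected genes. *Crem*, from which a repressor of the same elements is also made, was at 27.0, 21.6 and 31.2 FPKM. None of the 6 had a spread over 2-fold, a limit that 20.1% of all detected genes passed.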
